A study of Homo sapiens with 32 samples.

Results

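The 12 libraries described here are the controls of a study of IGF2BP knockouts, out of 32 libraries in all. They hold HEK293T cells that received a non-targeting CRISPR guide, sequenced in batches 1, 2, 3 and 4 as total, nuclear and cytoplasmic RNA. They were chosen by their labels, and within each kind of RNA the 2 controls of batches 3 and 4 were compared with the 2 of batches 1 and 2. HEK293T is a human embryonic kidney line that carries the SV40 large T antigen. The control cells were made in parallel with knockouts of IGF2BP1, IGF2BP2 or IGF2BP3, which bind mRNA, each knockout being 1 clone. All were grown untreated in high-glucose DMEM with glutamine, pyruvate and penicillin-streptomycin. IGF2BP1 knockout libraries came from batches 1 and 2, and IGF2BP2 and IGF2BP3 knockout libraries from batches 3 and 4. There were a further 2 cytoplasmic IGF2BP3 knockout libraries in batch 5. For the knockouts, non-integrating plasmids delivered 3 guides and GFP. Fractions were made with a commercial cell fractionation kit, and poly(A) libraries with a stranded mRNA kit. The labels do not say whether the control is a clone or a pool, how many passages separate the batches, or whether the total RNA and the fractions came from the same dishes. Batch pair, culture and library preparation therefore cannot be told apart. The p-values measure only spread between the 2 libraries of a batch pair, which may be technical. The test drew each gene's spread toward a trend over all genes. That trend carried 42.3, 169 and 17.5 prior degrees of freedom in total, nuclear and cytoplasmic RNA. A small p-value of 1 gene thus rests largely on the spread of other genes.

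Stress, sterol and heat shock transcription programmes recur in the results. In the integrated stress response, a lack of amino acids or other stress lets ATF4 be translated. ATF4 with C/EBP partners induces amino acid synthesis, transport and tRNA charging genes. Low sterol in the endoplasmic reticulum releases SREBP2, which induces genes of cholesterol synthesis and uptake. The INSIG1 protein holds that pathway back. Unfolded protein in the cytosol and nucleus frees HSF1, which induces the heat shock chaperones.

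The libraries carried the RNA of the labelled cells. Of 13 markers of the embryonic kidney line, all were tested, and their summed level was 1446 to 1894 CPM (counts scaled to a library's total). NEFM was at 179, 185, 204 and 194 CPM in total RNA of batches 1 to 4, and VIM at 653 to 695 CPM. Markers of blood cells (10 genes), hepatocytes (8) and endothelium (6) summed to at most 4.12, 1.98 and 0.766 CPM in any control library. Those of squamous and glandular epithelium (8) summed to 7.41 to 11.2 CPM and those of fibroblasts (8) to 20.6 to 42.5 CPM. Depth ran from 15992797 counts (nuclear, batch 4) to 26093403 (nuclear, batch 2). MALAT1, a nuclear RNA, was at 81.6 to 120 CPM in nuclear and 19.1 to 23.4 CPM in cytoplasmic RNA. A list of 8 nuclear marker RNAs separated the fractions less. Its sum was 636 to 894 CPM in nuclear, 386 to 435 in cytoplasmic and 686 to 773 in total RNA. Mitochondrially encoded RNA took 2.02 to 2.42% of nuclear and 7.19 to 8.43% of cytoplasmic counts. The fractions thus differed in the direction of their labels, although MALAT1 in total RNA (78.5 to 93.2 CPM) was close to the nuclear level.

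The 2 batch pairs differed in many genes, mostly by small amounts. In total RNA 5172 of 16552 genes (31.2%) passed the test (edgeR quasi-likelihood, adjusted p under 0.05), 2477 higher (15%) and 2695 lower (16.3%) in batches 3 and 4. In nuclear RNA 4465 of 16833 (26.5%) passed, 2218 higher (13.2%) and 2247 lower (13.3%). In cytoplasmic RNA 4108 of 15639 (26.3%) passed, 1849 higher (11.8%) and 2259 lower (14.4%). The median absolute log2 fold change of the called genes was 0.287, 0.372 and 0.283. Of those called in total RNA 226 rose and 54 fell by 2-fold or more. Without a test, 1.95 to 3.47% of genes lay past 1.5-fold between the 2 controls of a batch pair, against 5.46 to 11.8% between controls of different pairs, with nuclear control 1 furthest from batches 3 and 4. Scaling by the upper quartile instead of TMM moved the share of calls that were higher to 55% in total, 58.1% in nuclear and 59.5% in cytoplasmic RNA (45% with TMM). The split of calls by direction thus depends on the scaling.

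**Figure D1:**
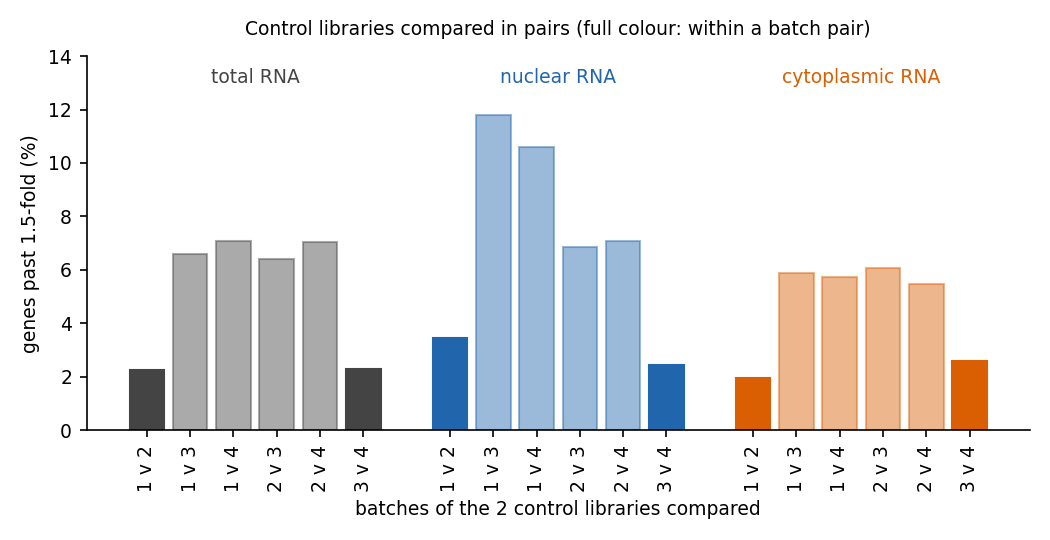
Percent of genes that differed by more than 1.5-fold between 2 control libraries, for each pair of batches in total, nuclear and cytoplasmic RNA; full colour marks pairs within batches 1 and 2 or within 3 and 4. Those lie at 1.95 to 3.47%, and every pair across them at 5.46 to 11.8%.

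Of 15315 genes tested in all 3 kinds, 842 were called in each kind with the same sign: 296 rose (1.93%) and 546 fell (3.57%) in batches 3 and 4. A further 182 were called in all 3 but not with 1 sign, and 6600 were called in none. Nuclear and cytoplasmic RNA gave the same direction for 1985 of the 2044 genes called in both (97.1%). Total and nuclear RNA did so for 1505 of 1888 (79.7%), and total and cytoplasmic RNA for 1370 of 1823 (75.2%). Over all 15315 genes, called or not, the shares with the same direction were 70.24, 59.99 and 58.26%, in that order. Across genes, which are not independent replicates, Pearson's r of the log2 fold changes was 0.54 for the 2 fractions, 0.28 for total and nuclear and 0.23 for total and cytoplasmic RNA. Upper quartile scaling gave 410 that rose and 377 that fell alike. Leaving out 1 batch from all 3 kinds left 100 to 136 genes that rose and 231 to 289 that fell alike, and DESeq2 gave 83 and 271. Limma on log2(FPKM + 1) called 817 genes in total, 0 in nuclear and 1 in cytoplasmic RNA and hence none alike. It had 5275, 4945 and 4813 genes at an unadjusted p under 0.05.

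**Figure D2:**
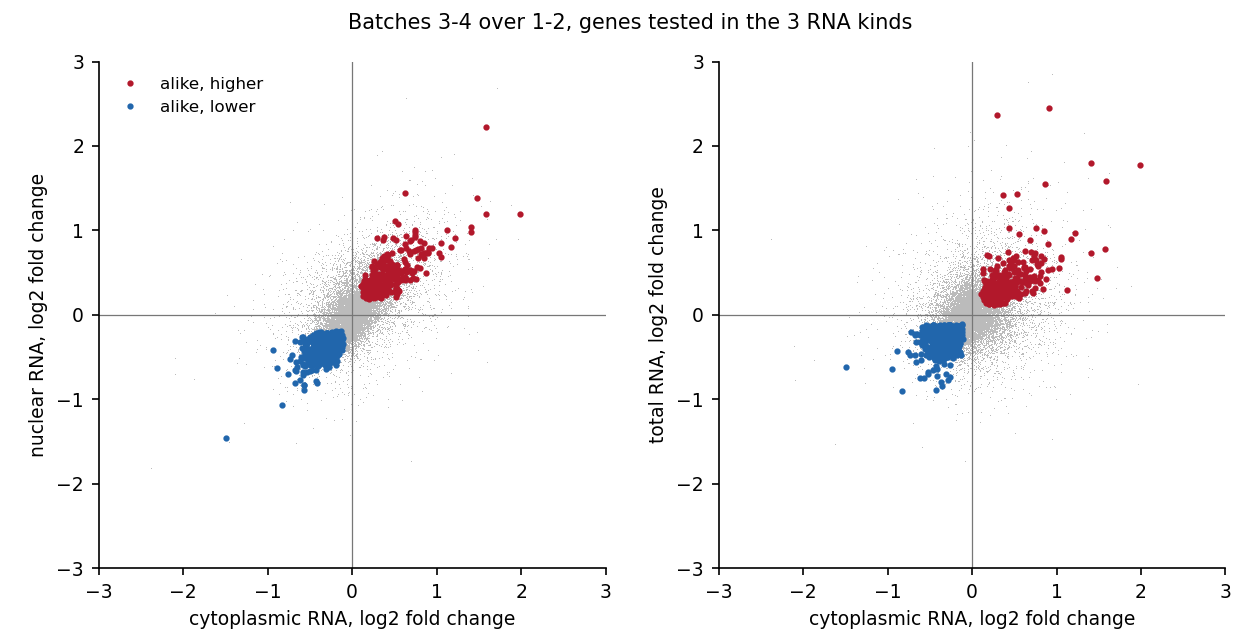
Log2 fold change of batches 3 and 4 over 1 and 2 for the 15315 genes tested in all 3 kinds, with cytoplasmic RNA on the x axis and nuclear RNA (left) or total RNA (right) on the y axis; genes called alike are red (296 higher) or blue (546 lower). The nuclear values follow the cytoplasmic ones more closely (r 0.54) than the total RNA values do (0.23).

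Among genes at 1 CPM or more, the 12 with the largest rise shared by the 3 kinds included the metabolic enzymes PCK2 and CTH, beside several antisense and noncoding RNAs of low level. PCK2, the mitochondrial phosphoenolpyruvate carboxykinase (GRCh38 chromosome 14, 24094053 to 24110598, plus strand), was at 51.2 and 53.6 CPM in total RNA of batches 1 and 2 and at 101 and 104 in batches 3 and 4. Nuclear RNA had 68.9, 62.7, 135 and 125 CPM and cytoplasmic RNA 35.7, 40.2, 83.7 and 91.5 CPM. All 6 libraries of batches 3 and 4 stood above those of batches 1 and 2 of the same kind. The log2 fold changes were 0.97 ± 0.05 (SE), 0.91 ± 0.08 and 1.22 ± 0.06 (adjusted p = 6.1e-19, 7.1e-20 and 1.9e-10). CTH, which makes cysteine from cystathionine (chromosome 1, 70411218 to 70439851, plus), had 22.5, 23.3, 66.6 and 66.8 CPM in total, 41.2, 42.4, 70.7 and 74.8 in nuclear and 35.7, 32.5, 60.4 and 63.1 in cytoplasmic RNA. Its groups did not overlap in any kind. PCK2 and CTH were chosen by these same values, so their lack of overlap was nearly fixed in advance. Its log2 fold change was larger in total RNA (1.55 ± 0.07) than in nuclear (0.73 ± 0.08) or cytoplasmic RNA (0.87 ± 0.06; interaction of total against cytoplasmic RNA 0.67, adjusted p = 1.5e-06). Among the abundant genes that rose alike by at least 0.5 in each kind, EIF4EBP1, a translation repressor controlled by mTORC1, rose by 0.66, 0.50 and 0.50 on the log2 scale. ALDH1L2, a mitochondrial folate enzyme, rose by 0.57, 0.53 and 0.61.

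DDR2, a collagen-binding receptor kinase (chromosome 1, 162631373 to 162787400, plus), was also among the 12. It was at 42.7, 43.4, 87.4 and 88.4 CPM in total, 38.2, 39.7, 71.0 and 68.2 in nuclear and 24.9, 27.4, 45.6 and 42.7 in cytoplasmic RNA (log2 fold change 1.03 ± 0.06, 0.77 ± 0.08 and 0.76 ± 0.07). The noncoding RNA LINC00467 rose by 0.73, 0.93 and 0.75 on the log2 scale, and the neurotrophic factor CDNF, at 1.01 to 3.76 CPM, by 0.90, 0.80 and 1.17. CEBPB-AS1, antisense to the region of a C/EBP factor and at 0.512 to 2.51 CPM, had, among genes at 1 CPM or more, the largest smallest change over the 3 kinds, with 1.80 ± 0.35 in total, 0.98 ± 0.32 in nuclear and 1.40 ± 0.34 in cytoplasmic RNA. ASNSP1, a pseudogene copy of ASNS whose reads cannot be told apart with certainty from those of its parent, rose by 2.45 ± 0.32, 0.79 ± 0.30 and 0.91 ± 0.28. The other genes named by the same rule, SGMS1-AS1, ST7-AS1, DHRS2, TEX22 and PAXBP1-AS1, were low or noncoding. For antisense RNAs the use of strand in the counting is not stated. INHBE, an activin subunit, and BEST1, a chloride channel, were the only 2 genes past 2-fold in each kind. They fell outside the naming rule, with means down to 0.236 CPM, and are named after their values were seen.

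The chaperones HSPA8 and HSPA1B were among the 12 genes named for the largest shared fall. By the smallest change over the 3 kinds HSPA8 led, followed by JMJD6 and then HSPA1B. HSPA8, the constitutive cytosolic HSP70 (chromosome 11, 123057489 to 123063230, minus strand), had 1630, 1589, 846 and 873 CPM in total, 1701, 1596, 811 and 837 in nuclear and 1057, 1028, 593 and 572 in cytoplasmic RNA. Batches 3 and 4 lay below batches 1 and 2 in every kind (log2 fold change -0.90 ± 0.04, -1.07 ± 0.10 and -0.83 ± 0.04, adjusted p = 1.6e-20, 6.3e-18 and 6.1e-11). HSPA1B, the stress-inducible HSP70 (chromosome 6, 31827735 to 31830255, plus), had 134, 132, 85.5 and 87.8 CPM in total, 268, 267, 107 and 98.4 in nuclear and 210, 215, 75.6 and 74.8 in cytoplasmic RNA. It fell by 0.61 on the log2 scale in total RNA, against 1.45 and 1.49 in the fractions (interaction of total against cytoplasmic RNA 0.87, adjusted p = 1.6e-11). Its near-identical neighbour HSPA1A was counted at 0.359 to 1.55 CPM, so the division of reads between the 2 genes is uncertain.

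The other genes named among those that fell most in all 3 kinds are known as receptors, regulators and enzymes. NOTCH1 had 52.2, 54.2, 34.7 and 31.5 CPM in total RNA and log2 fold changes of -0.67, -0.56 and -0.53, and NOTCH2 changed by -0.46, -0.52 and -0.46. JMJD6, a 2-oxoglutarate-dependent oxygenase of the nucleus, changed by -0.74, -0.77 and -0.61. The circadian repressor PER1 changed by -0.50, -0.57 and -0.51, and SMG1, a kinase of nonsense-mediated decay, by -0.46, -0.50 and -0.61. TMEM104, CILP2, EFNA4, PDE4A and S1PR3 completed the 12. In none of these 12 genes did the batch pairs overlap in any kind of RNA. The 12 were chosen by these same values, so that was nearly fixed in advance.

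**Figure D3:**
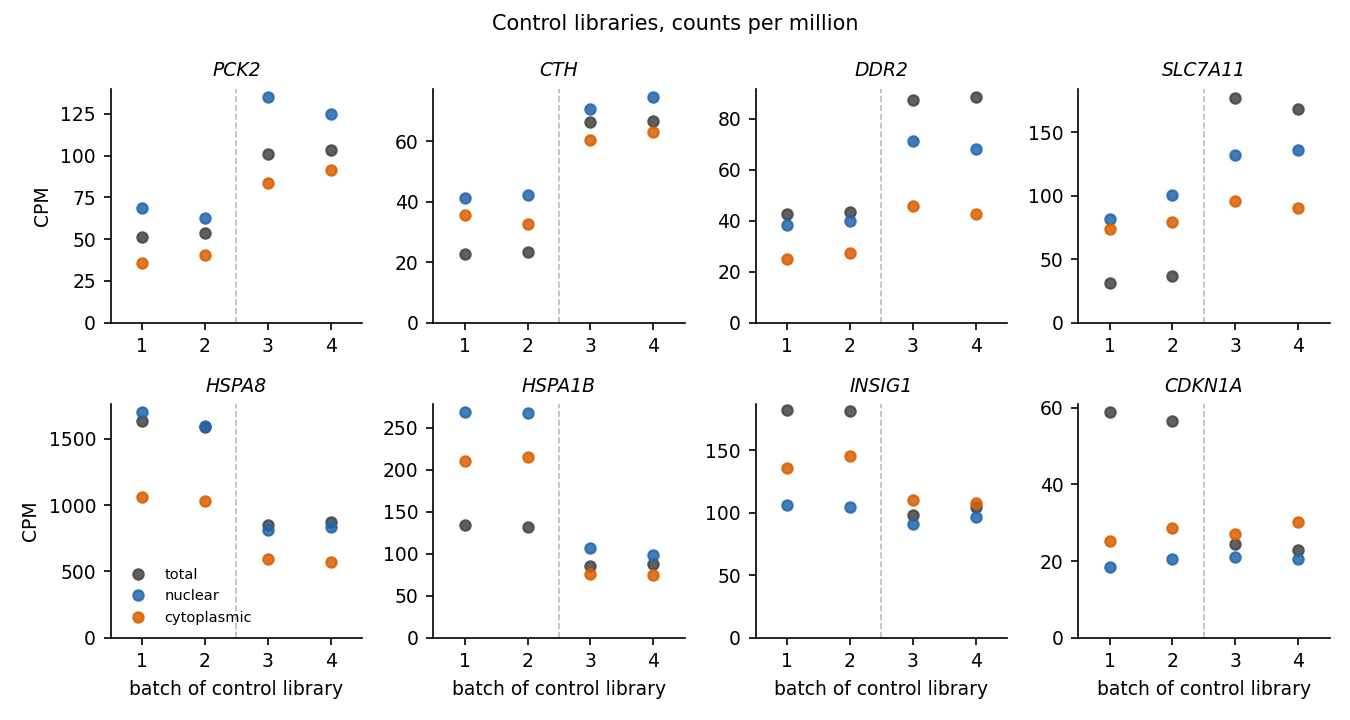
CPM of 8 genes in each control library of batches 1 to 4, coloured by kind of RNA, with a dashed line between batches 2 and 3. PCK2 and CTH are higher and HSPA8 and HSPA1B lower in batches 3 and 4 in all 3 kinds, SLC7A11 in total RNA goes from below both fractions (31.3 and 36.3) to above them (177 and 169), and CDKN1A is lower in total RNA at 24.4 and 23.0 CPM against 58.9 and 56.6.

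The integrated stress response list (32 genes, all tested) moved most in total RNA. There 28 rose and 0 fell, with a median log2 fold change of 0.57 against 0.01 for all genes tested. In nuclear RNA 12 rose and 3 fell (median 0.07), and in cytoplasmic RNA 18 rose and 3 fell (median 0.22). Among all genes tested 15, 13.2 and 11.8% rose and 16.3, 13.3 and 14.4% fell in total, nuclear and cytoplasmic RNA. The members had 87.5, 37.5 and 56.2% higher and 0, 9.38 and 9.38% lower. Without the batch 3 or the batch 4 controls 6 rose in nuclear RNA. The members' summed level in total RNA was 4462 and 4442 CPM in batches 1 and 2 and 6838 and 6959 in batches 3 and 4. In cytoplasmic RNA the sums were 5977, 6039, 7026 and 7135 CPM. Batches 1 and 2 thus had lower sums in total than in cytoplasmic RNA, while batches 3 and 4 had sums of 6755 to 7135 CPM across the 3 kinds. Of the 32 members, 10 rose in all 3 kinds (31.2%, against 1.93% of all genes): the factors ATF4, DDIT3, CEBPG and JDP2, the enzymes CTH, PSAT1, PCK2, MTHFD2 and ALDH1L2, and the transporter SLC7A11.

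Among the transcription factors, ATF4 (chromosome 22, 39519695 to 39522685, plus) was at 669, 648, 917 and 993 CPM in total RNA and rose by 0.54 ± 0.05, 0.32 ± 0.09 and 0.21 ± 0.04 on the log2 scale in total, nuclear and cytoplasmic RNA. DDIT3, the factor CHOP, rose by 0.53, 0.40 and 0.55 from a low level of 6.25 to 11.2 CPM in batches 1 and 2. CEBPG, a partner of ATF4, had 79.4, 78.1, 103 and 109 CPM in total RNA and rose by 0.43, 0.38 and 0.24. JDP2, a repressor of the AP-1 family, had 5.34, 5.10, 13.5 and 14.5 CPM and rose by 1.42, 0.34 and 0.37. The promoters of JDP2 and CEBPG are shown because they alone among the 8 of these 10 genes that matched the RefSeq table hold the letters TGATGNAA of the C/EBP-ATF response element, searched on both strands. Each run is the 250 bases before the start site, 5′ to 3′ on the gene's plus strand, with the match in capitals. It lies 16 to 9 bases before the start in JDP2 and 42 to 35 in CEBPG.

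JDP2, GRCh38.p14 chr14:75427772-75428021: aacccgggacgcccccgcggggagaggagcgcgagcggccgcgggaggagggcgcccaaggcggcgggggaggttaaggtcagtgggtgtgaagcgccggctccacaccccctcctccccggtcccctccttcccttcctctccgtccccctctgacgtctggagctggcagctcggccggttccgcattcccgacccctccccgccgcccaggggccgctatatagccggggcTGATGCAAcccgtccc
CEBPG, GRCh38.p14 chr19:33373863-33374112: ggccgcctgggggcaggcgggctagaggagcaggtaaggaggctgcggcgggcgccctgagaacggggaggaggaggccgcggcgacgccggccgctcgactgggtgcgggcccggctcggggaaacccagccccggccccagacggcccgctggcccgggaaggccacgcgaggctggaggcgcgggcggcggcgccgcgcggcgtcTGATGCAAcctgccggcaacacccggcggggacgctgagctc

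The letters occurred in 8 of 44 promoters of the whole list (18.2%) and in 14 of 335 promoters of the genes that rose alike (4.18%). They were in 1.94% of the promoters of all genes tested and in 3.62% of the 35116 promoters in the table. A match describes the window and is not a binding site.

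Of the enzymes, PSAT1 and MTHFD2, of serine synthesis and mitochondrial folate metabolism, rose more in total RNA than in the fractions. PSAT1 (chromosome 9, 78297143 to 78330093, plus) had 184, 188, 497 and 506 CPM in total, 374, 359, 467 and 485 in nuclear and 395, 391, 563 and 564 in cytoplasmic RNA, that is log2 fold changes of 1.44 ± 0.04, 0.31 ± 0.08 and 0.53 ± 0.04. MTHFD2 rose by 1.03, 0.41 and 0.43, and the interactions of total against cytoplasmic RNA were 0.90 for PSAT1 and 0.58 for MTHFD2 (adjusted p = 8.5e-14 and 7.8e-09). SLC7A11, the cystine-glutamate exchanger (chromosome 4, 138164097 to 138242349, minus), was the extreme case, at 31.3, 36.3, 177 and 169 CPM in total, 81.5, 101, 132 and 136 in nuclear and 73.3, 78.9, 95.4 and 90.1 in cytoplasmic RNA. Its total RNA lay below both fractions in batches 1 and 2 and above both in batches 3 and 4. Its log2 fold change was 2.36 ± 0.06, 0.48 ± 0.08 and 0.29 ± 0.05 (interaction 2.06, adjusted p = 1.4e-19). Of the 10 amino acid transporters and mTORC1 sensors tested, 6, 3 and 5 rose and 3, 1 and 1 fell in the 3 kinds. That is 60, 30 and 50% higher, against 15, 13.2 and 11.8% of all genes. The lower shares were 30, 10 and 10%, against 16.3, 13.3 and 14.4%, so in the fractions they lay below those of all genes. The glycine transporter SLC6A9 (1.26, 0.39 and 0.44), the neutral amino acid carriers SLC43A1 (0.65, 0.42 and 0.75) and SLC38A1 (0.49, 0.27 and 0.13) rose alike, and SLC7A6 (-0.31, -0.32 and -0.46) fell.

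Members of the list did not all share a direction in the fractions. CHAC1, a glutathione-degrading enzyme, was at 6.70, 5.73, 16.3 and 16.3 CPM in total RNA but at 30.2, 29, 19.4 and 19.8 in cytoplasmic RNA, with log2 fold changes of 1.38 ± 0.12, -0.50 ± 0.11 (nuclear) and -0.59 ± 0.08. NUPR1, a stress-induced chromatin protein, went the other way, at 1.88 ± 0.29 in cytoplasmic, 1.29 ± 0.40 in nuclear and 0.33 ± 0.31 in total RNA, where it did not pass (adjusted p = 0.46). Its level was 0.307 to 2.69 CPM. ASNS, asparagine synthetase, rose in total RNA, from 6.23 and 6.46 to 15.3 and 14.8 CPM, and in cytoplasmic RNA (log2 fold change 0.69), and was at 0.22 in nuclear RNA (adjusted p = 0.13), with the same uncertainty as its pseudogene. CHAC1, NUPR1 and ASNS are named after their values were seen.

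**Figure D4:**
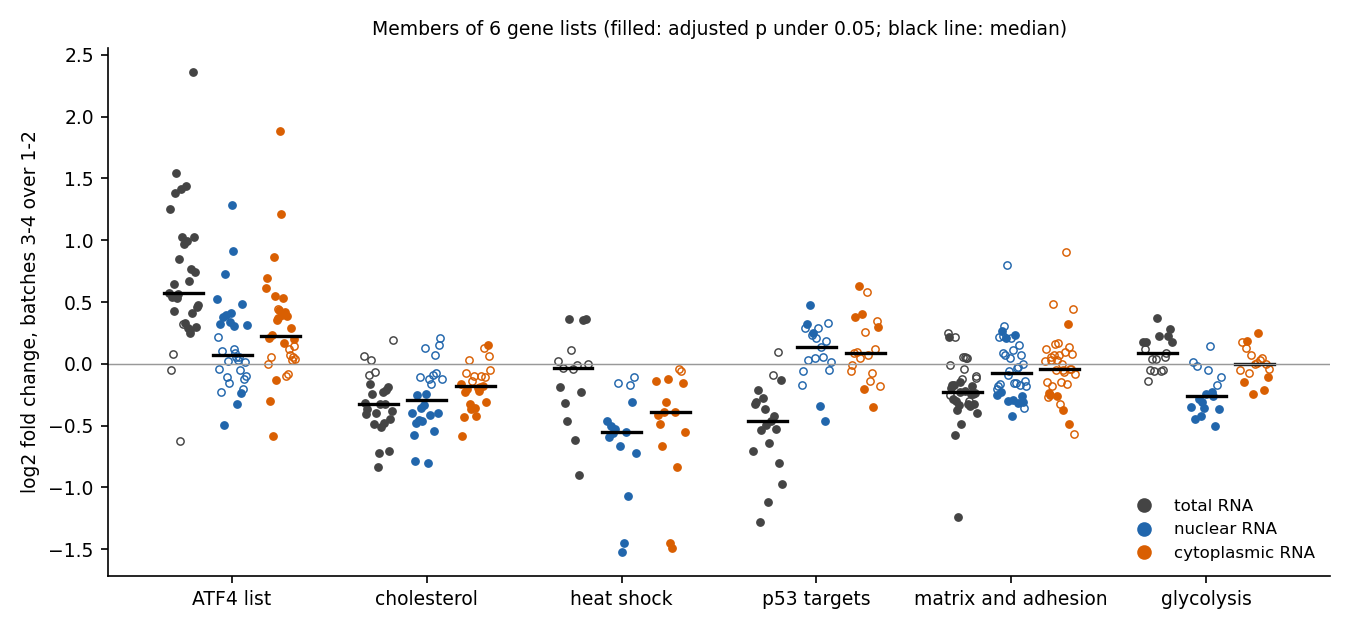
Log2 fold change of each tested member of 6 gene lists in total, nuclear and cytoplasmic RNA; filled points passed the test (adjusted p under 0.05) and black lines are medians. The integrated stress response (ATF4 list) medians are 0.57, 0.07 and 0.22, those of cholesterol synthesis -0.32, -0.29 and -0.18, and those of the p53 targets -0.46, 0.14 and 0.09.

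Genes of cholesterol synthesis and uptake were lower in batches 3 and 4 in every kind. Of 24 tested, 19 fell in total (median log2 fold change -0.32), 14 in nuclear (-0.29) and 13 in cytoplasmic RNA (-0.18), and 0, 0 and 1 rose. Among all genes 16.3, 13.3 and 14.4% fell in the 3 kinds, against 79.2, 58.3 and 54.2% of these members. Without the batch 3 controls 8 fell in nuclear RNA. Of these, 11 fell in all 3 kinds (45.8%, against 3.57% of all genes), among them the pathway enzymes HMGCS1, FDFT1, SQLE, CYP51A1, MSMO1, NSDHL and DHCR7 and the regulator INSIG1. The summed level in total RNA was 2458 and 2447 CPM in batches 1 and 2 and 1863 and 1888 in batches 3 and 4. HMGCS1, which makes HMG-CoA (chromosome 5, 43289395 to 43313512, minus), had 94.8, 102, 67.7 and 72.2 CPM in total RNA of batches 1 to 4. Nuclear RNA had 88.7, 88.1, 66.2 and 68.5 CPM and cytoplasmic RNA 76.8, 74.7, 59.7 and 57.0 CPM. The batch pairs did not overlap in any kind, and the log2 fold changes were -0.49 ± 0.05, -0.46 ± 0.08 and -0.37 ± 0.05; the gene is named after its values were seen. CYP51A1, the lanosterol demethylase, was lower in level, at 4.19 to 13.1 CPM, and changed by -0.32 ± 0.11, -0.58 ± 0.18 and -0.58 ± 0.13.

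INSIG1, itself a target of SREBP2, had 182, 181, 98.5 and 105 CPM in total RNA and fell more there (-0.84 ± 0.05) than in nuclear (-0.24 ± 0.08) or cytoplasmic RNA (-0.36 ± 0.05; interaction of total against cytoplasmic RNA -0.49, adjusted p = 1.8e-06). SREBF2, the gene of the factor itself, fell in total RNA (-0.44), was at 0.15 in nuclear RNA (adjusted p = 0.14) and rose by 0.15 in cytoplasmic RNA. It is named after its values were seen. In fatty acid synthesis, which SREBP1 drives, FASN (-0.23, -0.55 and -0.62), the desaturase SCD (-0.33, -0.41 and -0.15) and ACACA (-0.41, -0.43 and -0.29) fell in all 3 kinds. Of the 10 genes 4, 6 and 5 fell and 2, 0 and 1 rose. That is 40, 60 and 50% lower, against 16.3, 13.3 and 14.4% of all genes. The higher shares were 20, 0 and 10%, against 15, 13.2 and 11.8%. The sterol response element, searched as TCACNCCAC, was in none of the 8 promoters of the 11 cholesterol genes that the table held (6 genes matched) and in 1.13% of all promoters, so none is shown.

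Heat shock chaperones fell mainly in the fractions. Of 15 tested, 12 fell in nuclear RNA (median -0.55) and 13 in cytoplasmic RNA (median -0.39) with 0 rising in either. In total RNA 6 fell and 3 rose (median -0.03). In total, nuclear and cytoplasmic RNA 40, 80 and 86.7% of members fell, against 16.3, 13.3 and 14.4% of all genes. The 20% that rose in total RNA stand against 15% of all genes. The summed level fell from 10819 and 10700 CPM to 7874 and 8112 in nuclear RNA, while in total RNA it was 7448, 7394, 7256 and 7535 CPM in batches 1 to 4, where the pairs overlap. Of the 15 members, 5 fell in all 3 kinds (33.3%, against 3.57% of all genes). They were HSPA8 and HSPA1B, their J-domain partners DNAJA1 (-0.32, -0.56 and -0.66) and DNAJB1 (-0.47, -0.53 and -0.39), and the exchange factor BAG3 (-0.19, -0.59 and -0.41). DNAJA1 (chromosome 9, 33025211 to 33039907, plus) had 287, 277, 222 and 231 CPM in total and 351, 337, 216 and 215 in cytoplasmic RNA. The promoters of DNAJA1 and HSPA8 are shown because they hold the heat shock element, searched on both strands as GAA, TTC and GAA with any 2 bases between each. The HSPA8 run is the 250 bases before its start with matches at 230 to 218 and, reverse-complemented, at 55 to 43 bases before it. The DNAJA1 run goes on to base 16 of the transcript and the match is at bases 4 to 16. Both are 5′ to 3′ on the gene's own strand, with the matches in capitals.

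HSPA8, GRCh38.p14 chr11:123062137-123062386 (minus strand): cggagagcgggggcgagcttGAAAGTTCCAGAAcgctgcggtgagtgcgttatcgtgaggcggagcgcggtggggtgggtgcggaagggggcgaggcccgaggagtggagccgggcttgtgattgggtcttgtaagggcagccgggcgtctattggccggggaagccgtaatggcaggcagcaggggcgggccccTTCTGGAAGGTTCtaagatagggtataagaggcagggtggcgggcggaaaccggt
DNAJA1, GRCh38.p14 chr9:33025023-33025288 (plus strand): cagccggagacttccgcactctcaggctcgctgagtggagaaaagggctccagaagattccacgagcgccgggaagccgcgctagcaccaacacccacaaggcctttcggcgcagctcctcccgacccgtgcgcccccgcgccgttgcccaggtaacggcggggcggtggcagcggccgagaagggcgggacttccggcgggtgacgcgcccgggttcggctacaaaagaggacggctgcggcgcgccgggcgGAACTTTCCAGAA

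The element was in 6 of 22 promoters of the list (27.3%), those of CHORDC1, DNAJA1, HSP90AA1, HSP90AB1, HSPA8 and HSPD1, and in 0.49% of all promoters. Among the genes that fell alike it was in 3 of 680 promoters (0.441%), near the 0.319% of all genes tested. The promoters of HSPA1B, DNAJB1 and BAG3 in the table did not hold these letters. In the unfolded protein response of the endoplasmic reticulum (17 genes), the HSP70 of that compartment HSPA5 (-0.13, -0.57 and -0.30), the chaperone CALR (-0.22, -0.59 and -0.19) and HYOU1 (-0.12, -0.48 and -0.33) fell in all 3 kinds. Of the 17 members 4, 1 and 1 rose and 5, 8 and 6 fell in total, nuclear and cytoplasmic RNA, that is 29.4, 47.1 and 35.3% lower against 16.3, 13.3 and 14.4% of all genes. The higher shares were 23.5, 5.88 and 5.88%, against 15, 13.2 and 11.8%. The median log2 fold changes were -0.02, -0.18 and -0.10.

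The p53 targets differed between total RNA and the fractions. In total RNA 17 of 19 fell and 0 rose, with a median log2 fold change of -0.46. In nuclear RNA 3 rose and 2 fell (median 0.14) and in cytoplasmic RNA 4 rose and 2 fell (median 0.09). In the fractions the shares were 15.8 and 21.1% higher and 10.5 and 10.5% lower, against 13.2 and 11.8% higher and 13.3 and 14.4% lower among all genes, so apart from the higher share in cytoplasmic RNA they lay near the background. CDKN1A, the cell cycle inhibitor p21 (chromosome 6, 36676460 to 36687339, plus), had 58.9, 56.6, 24.4 and 23.0 CPM in total RNA, against 18.4, 20.6, 21.2 and 20.6 in nuclear and 25.2, 28.7, 27.1 and 30.1 in cytoplasmic RNA. Its total RNA in batches 1 and 2 stood above both fractions, and in batches 3 and 4 it lay near them. The log2 fold change was -1.28 ± 0.07 in total RNA and 0.03 ± 0.11 and 0.10 ± 0.08 in the fractions (adjusted p = 0.88 and 0.42). MDM2, the ubiquitin ligase of p53, changed by -0.49 in total and -0.21 in cytoplasmic RNA and was at 0.05 in nuclear RNA (adjusted p = 0.71), a gene named after its values were seen. TIGAR, a fructose bisphosphatase, was the 1 target that fell in all 3 kinds (-0.53, -0.47 and -0.35). HEK293T cells hold large T antigen, which binds p53.

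The change between batch pairs was then compared between kinds of RNA, by the interaction of batch pair and kind. Nuclear against cytoplasmic RNA gave 440 of 17176 genes (2.56%), 223 with the larger value in nuclear RNA (1.3%) and 217 with the larger in cytoplasmic RNA (1.26%). Total against cytoplasmic RNA gave 3340 of 16939 (19.7%), 1680 higher (9.92%) and 1660 lower (9.8%). In total against cytoplasmic RNA the p53 targets had 15 of 19 lower and 0 higher, the integrated stress response 20 of 32 higher and 2 lower. Heat shock chaperones had 9 of 15 higher and 0 lower, extracellular matrix and adhesion 12 of 36 lower and 0 higher, and ribosomal proteins 50 of 82 lower and 4 higher. The nuclear count was 7 to 1267 and the total count 1168 to 3254 when 1 batch was left out. In nuclear against cytoplasmic RNA the largest positive interactions among genes at 1 CPM or more were those of ADM5 (1.51), U2AF1L4 (1.21) and ZNF582 (1.17). The largest negative ones were those of RN7SL1 (-1.14), the mitochondrial rRNA MT-RNR1 (-0.81) and MT-ND6 (-0.79), all on the log2 scale.

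Total RNA also lay outside the range of the 2 fractions more often in batches 1 and 2, a count chosen after the values of SLC7A11 and CDKN1A were seen. A mean total CPM at least 1.5-fold above both fractions was found in 536 of 15315 genes (3.5%) in batches 1 and 2 and in 86 (0.562%) in batches 3 and 4. One at least 1.5-fold below both was found in 302 (1.97%) and 85 (0.555%). Of the 19 p53 targets 6 lay above in batches 1 and 2 and 0 in batches 3 and 4. Of the 32 stress response genes 10 lay below in batches 1 and 2 and 0 in batches 3 and 4. These counts carry no test, and whether total RNA and fractions of 1 batch came from the same culture was not tested.

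Some of the remaining lists are given here. All genes had 15, 13.2 and 11.8% higher and 16.3, 13.3 and 14.4% lower calls in total, nuclear and cytoplasmic RNA. Alike, 1.93% were higher and 3.57% lower. Mitochondrially encoded mRNAs had 10 of 13 higher and 0 lower in total RNA. They had 0 higher and 4 lower in nuclear and 6 higher and 1 lower in cytoplasmic RNA. TGF-beta and BMP targets had 5 of 11 higher and 3 lower in total, 4 and 1 in nuclear and 0 and 3 in cytoplasmic RNA. Neither list had a gene called alike. Ribosomal proteins rose mainly in cytoplasmic RNA, where 73 of 82 rose and 0 fell (median 0.25), against 29 and 6 in total and 19 and 1 in nuclear RNA, and 12 of 82 rose in all 3 kinds. Extracellular matrix and adhesion genes fell in total RNA (22 of 36, 1 rose) with 8 falling and 3 rising in nuclear and 5 of 35 falling and 1 rising in cytoplasmic RNA. The fibrillin FBN2 and the collagen COL4A2 fell in all 3. DNA replication genes rose in total RNA (14 of 25, 2 fell) and fell in nuclear RNA (8, 0 rose), with 7 rising and 4 falling in cytoplasmic RNA. Glycolysis likewise had 7 of 17 rising in total, 11 falling in nuclear, and 2 rising and 4 falling in cytoplasmic RNA, with none alike. Among 22 mitosis genes the kinase CDK1 rose alike (0.22, 0.37 and 0.13), while MKI67 (-0.20, -0.26 and -0.25), CDC20 and BIRC5 fell. Of the interferon-stimulated genes 3, 2 and 1 rose and 2, 3 and 1 fell of 28, 30 and 28, that is 10.7, 6.67 and 3.57% higher and 7.14, 10 and 3.57% lower, each below the share of all genes. None of 27 interferon-stimulated genes and none of 16 NRF2 targets moved alike, which in lists this small is near the 1.93 and 3.57% of all genes. By kind the NRF2 targets had 31.2, 6.25 and 25% higher and 6.25, 43.8 and 25% lower. Alike, PDK1 rose and PFKFB3 fell among 21 hypoxia genes. PTPN14 and AMOTL1 fell among 20 YAP targets, and ZNRF3 among 10 Wnt targets, again few genes in small lists.

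The genes that moved alike differed in length, composition and level from all genes tested, among which they are counted. Calls depend on read counts, which rise with level and length, so the selection itself may favour some of these traits. Its part was not tested. Median exonic length was 7031 bases for the 546 that fell, 4131 for the 296 that rose and 4717 for all tested, and median GC content of the longest transcript was 51.9, 43.2 and 48.4%. The median level in total RNA was 92.8, 34.01 and 25.8 CPM, and 98.7, 85.5 and 83.2% were protein coding. Long noncoding RNAs made up 35 of the genes that rose (11.8%) and 6 of those that fell (1.1%), against 10% of all tested. In total RNA the longest quartile of genes had 28.6% lower and 11.4% higher calls and the shortest quartile 7.11% lower and 14.7% higher. In nuclear and cytoplasmic RNA the longest quartile had 18.7 and 23.3% lower calls. By GC content, the lowest quartile had 24.5% higher and 9.35% lower calls in total, 19.9 and 6.33% in nuclear, and 11.7 and 15.5% in cytoplasmic RNA. With offsets for length and GC, chosen after seeing the data, 311 genes rose and 468 fell alike, of which 190 and 357 were among the 296 and 546. Along the genome, none of 559 windows of 50 neighbouring genes had a median log2 fold change past 0.2 in 1 direction in all 3 kinds (the smallest of the 3 medians ran from -0.09 to 0.09).

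**Figure D5:**
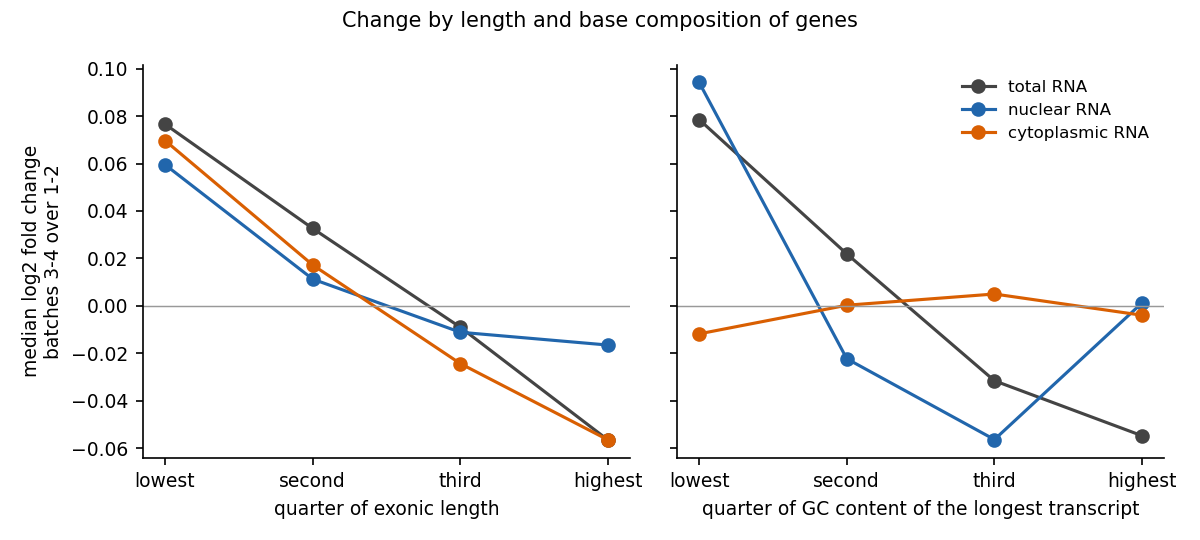
Median log2 fold change of batches 3 and 4 over 1 and 2 in 4 bins of genes, by exonic length (left) and GC content of the longest transcript (right), for each kind of RNA. The median falls from the shortest to the longest genes in all 3 kinds (0.08 to -0.06 in total RNA), while by GC content it runs from 0.08 to -0.05 in total, is 0.09, -0.02, -0.06 and 0.00 in the 4 bins of nuclear RNA, and stays between -0.01 and 0.00 in cytoplasmic RNA.

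The same batches carry knockout libraries, which share no sample with the controls. IGF2BP2 and IGF2BP3 knockouts of batches 3 and 4 against IGF2BP1 knockouts of batches 1 and 2 passed the test in 46.4, 59.5 and 72.9% of genes in total, nuclear and cytoplasmic RNA. In that comparison genotype, clone and batch pair cannot be told apart. Of the 842 genes, 73.8, 84.3 and 86.0% had the sign they had in the controls, against 59.7, 64.3 and 65.5% of all genes tested. One library is deposited under 2 labels with identical counts, as total IGF2BP1 knockout replicate 2 and nuclear IGF2BP1 knockout replicate 1. Without it the shares were 80.6% in total (62.5% of all genes) and 85.5% in nuclear RNA (65.3%). In the knockouts PCK2 was higher by 1.62, 1.90 and 1.96 and HSPA8 lower by log2 fold changes of -1.47, -1.67 and -1.92. INSIG1 changed by -1.98, -1.81 and -1.89. CDKN1A, which fell in total RNA of the controls, was higher by 1.61, 1.73 and 1.795 and passed in each kind. HSPA5, which fell in all 3 kinds in the controls, was at -0.17, 0.06 and 0.07, passing in cytoplasmic RNA only. Of the 24 genes named for the largest shared change, DDR2, NOTCH1, PER1 and PDE4A did not keep the sign of the controls in every kind. PER1 (0.66, 0.62 and 0.41) and the phosphodiesterase PDE4A (0.36, 0.26 and 0.35, passing in cytoplasmic RNA only) were at positive values in all 3, NOTCH1 was at 0.07, 0.09 and -0.22 and DDR2 at 0.59, -0.06 and -0.16. TIGAR, at 0.26, 0.10 and 0.21 in the knockouts, and PDK1, at -0.29, -0.46 and -0.39, also had the opposite sign in all 3, as did IGF2BP1, which is itself edited there.

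In cytoplasmic IGF2BP3 knockout cells, batch 5 could be set against batches 3 and 4 within 1 clone. Of 17547 genes, 58.7% passed, 30% higher and 28.8% lower in batch 5. Of the 842 genes 16.6% had the sign of the controls, against 35.2% of all genes. Of the 842 genes 584 (69.4%) were called with the opposite sign, against 43.3% of all genes. The integrated stress response had 1 of 32 higher and 30 lower (median -0.71), cholesterol synthesis 20 of 25 higher and 3 lower (median 0.43), and heat shock chaperones 14 of 15 higher and 1 lower (median 0.79). PCK2 changed by -2.26, SLC7A11 by -1.57, HSPA8 by 0.99 and INSIG1 by 0.64 on the log2 scale. The batch 3 and 4 libraries subtracted here were on the plus side of the cytoplasmic knockout comparison above. Opposite signs between it and these values are thus in part built in. The p53 targets had 5 of 19 higher and 11 lower (median -0.20). Batch 5 holds no control library, so these values have no counterpart in control cells.

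The genes that the study edited were themselves measured in the controls. IGF2BP1 (chromosome 17, 48997412 to 49055650, plus) was at 469, 469, 435 and 396 CPM in total, 384, 388, 312 and 311 in nuclear and 401, 397, 330 and 341 in cytoplasmic RNA. It fell in all 3 kinds, by 0.17, 0.38 and 0.24 on the log2 scale (SE 0.04, 0.08 and 0.04). IGF2BP2 had 104, 99.1, 77.5 and 73.6 CPM in total RNA and fell there (-0.42 ± 0.05) and in nuclear RNA (-0.22 ± 0.08, adjusted p = 0.037), with 0.07 ± 0.05 in cytoplasmic RNA (adjusted p = 0.31) and an interaction of total against cytoplasmic RNA of -0.51. IGF2BP3, at 63.4 to 86.9 CPM, had log2 fold changes of 0.11 ± 0.05, -0.00 ± 0.08 and -0.04 ± 0.06, none of which passed.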

How the data were processed

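Read counts per gene and FPKM values per gene were deposited by the authors for every library. The submitters' processing notes name STAR, featureCounts, DESeq2 1.44.0 and GRCh38, without settings; the use of strand in counting is not given in the sources used here. The deposited counts are raw read counts. The deposited FPKM values were used only for the limma alternatives. Libraries were grouped by batch number in their labels, 2 per group. Control libraries of 1 kind of RNA were fitted with edgeR 4.0.16 (R 4.3.3) quasi-likelihood tests after filterByExpr and TMM, with Benjamini-Hochberg adjustment over all genes tested and a threshold of 0.05; log2 fold changes are batches 3 and 4 minus 1 and 2, with standard errors from the F statistic. Interactions used both kinds of RNA. Depth of 15992797 to 26093403 counts limits the precision of low genes; the standard errors also hold the spread between libraries (biological coefficient of variation 3.04, 5.52 and 3.18% in total, nuclear and cytoplasmic RNA). In simulated counts, genes changed 2-fold were recovered at 93.9% in total, 83.7% in nuclear and 98% in cytoplasmic RNA. Those changed 1.25-fold were recovered at 47.9, 20.4 and 54%. The simulation changed 200 genes per comparison, with a spread set by expression level alone. In the data 26.3 to 31.2% of genes were called, so these rates need not hold there. An exact permutation test of 2 against 2 libraries cannot go below 0.333 (two-sided) and was not used.

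The count tables hold 62703 identifiers, of which 58279 are in GENCODE 29, which gave positions, lengths and types; 20403 carry no symbol. Promoters are from RefSeq (GRCh38.p14). The comparison, the 31 gene lists (539 genes and the ribosomal proteins by name) and the members were chosen with earlier results of these data known. Genes named are the 12 that rose and 12 that fell alike with the largest smallest change at 1 CPM or more, the 5 most abundant per direction past 0.5 on the log2 scale, up to 4 genes per list, the 3 extreme interactions per direction and the IGF2BP genes; others are said to be chosen later, and some genes that the rule picks are not reported here. Alternatives were RLE and upper quartile scaling, no count filter, a 1 CPM filter, DESeq2 1.42.0, limma 3.58.1 on log2(FPKM + 1) and log2(FPKM + 0.1), all libraries in 1 fit, each batch left out, a replicate block, and offsets for length and GC. The replicate number marks the batch in the labels, so libraries of 2 kinds with the same number share a batch and were blocked in that alternative; their deviations from the group means correlated at -0.04 to 0.07.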

Additional observations from a re-analysis of the deposited data

Results flagged for a closer look

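The change between batch pairs differed between kinds of RNA by the interaction test in the genes below; the values are given without an explanation, whose part was not tested. It differed between nuclear and cytoplasmic RNA in 440 of 17176 genes (2.56%) and between total and cytoplasmic RNA in 3340 of 16939 (19.7%). Among the latter 16939 genes 9.92% were higher and 9.8% lower in total RNA. In total against cytoplasmic RNA it was lower for 15 of 19 p53 targets, 50 of 82 ribosomal protein genes (4 higher) and 12 of 36 extracellular matrix and adhesion genes. It was higher for 20 of 32 genes of the integrated stress response (2 lower) and 9 of 15 heat shock chaperones. Single genes of that comparison were SLC7A11 (2.06), CHAC1 (1.96), HSPA1B (0.87), IGF2BP2 (-0.51) and CDKN1A (-1.38), all log2 differences of total minus cytoplasmic RNA. In nuclear minus cytoplasmic RNA the differences were 1.51 for ADM5, 1.21 for U2AF1L4, 1.17 for ZNF582, -1.14 for RN7SL1, -0.81 for MT-RNR1 and -0.79 for MT-ND6. A change of HSPA1B of -0.61 in total and -1.49 in cytoplasmic RNA gives a positive difference although both fell.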

How the results depend on the processing

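With 2 libraries per batch pair, counts of calls moved most. DESeq2 called 2717 genes in total, 2627 in nuclear and 2115 in cytoplasmic RNA, with 83 higher and 271 lower alike. Limma on log2(FPKM + 1) called 817, 0 and 1, and on log2(FPKM + 0.1) 898, 0 and 1, with 0 higher and 0 lower alike in each; at an unadjusted p under 0.05 the nuclear counts were 4945 and 4915, and the smallest nuclear adjusted p was 0.0757 and 0.0678. With all libraries in 1 fit, which holds the library deposited under 2 labels, 692 genes were called in total, 3325 in nuclear and 4843 in cytoplasmic RNA, with 54 higher and 71 lower alike. Leaving out 1 batch gave 2708 to 4689 genes in total RNA (2708 and 2768 without batch 1 and batch 2), 1375 to 5235 in nuclear RNA (1375 and 1956 without batch 3 and batch 4) and 2764 to 3715 in cytoplasmic RNA. Genes called alike were 100 to 136 higher and 231 to 289 lower, of which 92 to 113 and 211 to 258 were among the reported ones. The stress response count in nuclear RNA was 6 to 11, that of cholesterol genes 8 to 14, and the p53 targets lower in nuclear and cytoplasmic RNA 0 to 3 and 0 to 2. The nuclear against cytoplasmic interaction count was 7 to 1267 (101, 1267, 7 and 121 without batches 1, 2, 3 and 4) and that of total against cytoplasmic RNA 1168 to 3254 (1168 and 1668 without batch 1 and batch 2). The replicate block gave 351 and 2954, with 308 and 2943 genes shared, and among the named interactions the calls of DDR2 (0.26), HSPA5 (0.17) and H2AC20 (1.76) in total against cytoplasmic RNA were lost; the p53 targets lower numbered 15 in total and 0 in nuclear against cytoplasmic RNA. The cause of these shifts was not tested.

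Upper quartile scaling kept 56 of 75 list medians within the spread and RLE all 75. Those that moved were the stress response in total (0.59) and cytoplasmic RNA (0.27), the unfolded protein response in cytoplasmic RNA (-0.061), cholesterol genes in nuclear (-0.26) and cytoplasmic RNA (-0.14), fatty acid synthesis in total (-0.091) and cytoplasmic RNA (-0.10), glycolysis in cytoplasmic RNA (0.039), heat shock chaperones in nuclear (-0.52) and cytoplasmic RNA (-0.35), YAP targets (0.013), TGF-beta targets (-0.080) and neuronal genes (0.033) in nuclear RNA, mitosis in nuclear (-0.12) and cytoplasmic RNA (-0.047), DNA replication in nuclear (-0.13) and cytoplasmic RNA (0.063), amino acid transporters in nuclear RNA (0.29) and the IGF2BP genes in cytoplasmic RNA (-0.0035). Of the 75 medians 8 changed sign.

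IGF2BP1 lost its call in total RNA under both limma fits (-0.16 and -0.18), with all libraries (-0.18) and with offsets (-0.071), with a range of -0.23 to -0.11 over the batches left out, and under limma in nuclear (-0.35 and -0.40; -0.40 to -0.38 with a batch left out) and cytoplasmic RNA (-0.22 and -0.25). IGF2BP2 lost its call in total RNA under limma (-0.15 and -0.37) and with all libraries (-0.43), and in nuclear RNA under upper quartile scaling (-0.19), no filter (-0.23), DESeq2 (-0.22), limma (-0.063 and -0.19), all libraries (-0.23), offsets (-0.15) and with a batch left out (-0.28 to -0.16). IGF2BP3 passed in total RNA under upper quartile scaling (0.13), and reversed in nuclear RNA under that scaling (0.028) and the 1 CPM filter (0.0054; -0.074 to 0.062 with a batch left out) and in cytoplasmic RNA with offsets (0.00091; -0.11 to 0.021). Offsets for length and GC reversed SLC30A1 (-0.0063), H2AC20 (-0.11) and H2BC5 (-0.038) in nuclear, UHRF1 (0.016) and COL4A2 (0.038) in total and MT-ATP8 (-0.063) in cytoplasmic RNA. With a batch left out, signs changed for HK2 (-0.023 to 0.094), U2AF1L4 (-0.099 to 0.13) and ZNF582 (-0.13 to 0.042) in total RNA, for MT-ND4 (-0.32 to 0.064), H2AC20 (-0.19 to 0.29), H2BC5 (-0.17 to 0.28), EPCAM (-0.20 to 0.094) and MT-RNR1 (-0.25 to 0.071) in nuclear RNA, and for SAMD9 (-0.020 to 0.24), ID4 (-0.16 to 0.0012), MT-ATP8 (-0.048 to 0.26), H2AC20 (-0.39 to 0.026), H2BC5 (-0.36 to 0.11), ELAVL2 (-0.13 to 0.039) and EPCAM (-0.040 to 0.28) in cytoplasmic RNA. Over the reported named genes and settings, 2980 values kept direction and side of the threshold, 790 lost the call, 19 gained it and 27 reversed. The share of the 842 genes with the controls' sign in total RNA of the knockouts was 80.6% without the identical library.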
